A study of Rattus norvegicus with 24 samples.

Results

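A group of 74 transcripts, out of 22938 in the tables, was lower in old than in young rat liver both as RNA and as ribosome-protected fragments. A transcript belonged to the group when, in liver RNA-seq and in liver ribosome profiling alike, every old library lay below every young one, the young mean was at least 1.5 times the old mean, and the young mean reached at least 1 CPM (a transcript's count as a share of its library's total, scaled to parts per 1000000). The group was thus chosen by its measured levels in the 12 liver libraries, and the liver values below are a description without a test. The rats were young (6 months) or old (24 months), with 3 animals of each age, and brain and liver libraries were made for both assays, which gives 24 libraries in 8 groups. Libraries are called by animal from the number their titles share across organs and assays; the labels do not state in words that a shared number is the same rat. The labels name no strain, sex, treatment or altered gene, and the young animals are the controls of each comparison.

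Liver makes most plasma proteins and carries out much of the body's nutrient, bile acid and drug metabolism, and its transcripts for these tasks are mostly rare in brain. RNA-seq reads how much of a transcript is present. Ribosome profiling digests the RNA that ribosomes do not cover and sequences the pieces left, so it reads how much of a transcript is being translated. A transcript with a lower CPM in both assays is lower in its share of the RNA counted and in its share of ribosome-covered RNA. The identifiers pair with no gene name in the reference table (0 of 22938 matched), so roles of single transcripts are not stated and no sequences are shown. In whole tissue, fewer cells of a type and less RNA per cell cannot be told apart.

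The RNA-seq libraries held 14281043 to 28664906 counts each, and the ribosome profiling libraries 5259326 to 17584871. Liver RNA-seq totals were 17932008 to 21134842 in young and 25444467 to 28664906 in old rats, so depth and age cannot be told apart there. CPM removes the total but not a shift in composition. The median log2 ratio of old over young over the 10384 transcripts of at least 1 CPM in young liver in both assays was -0.09 in RNA-seq and 0.10 in ribosome profiling, against -0.94 and -0.81 for the 74 (log2 of mean CPM plus 0.5).

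The falls were mostly modest, with a few very large ones. The young over old ratio of the 74 had a median of 1.97 in RNA-seq (quartiles 1.65 and 2.33) and of 1.83 in ribosome profiling (quartiles 1.61 and 2.17). In RNA-seq 34 of the 74 had a ratio of at least 2, in ribosome profiling 23 did, and 20 did in both. For 70 of the 74 the ratios of the assays lay within 1.5 times of each other, and 32 had the larger ratio in ribosome profiling. The full rule was met by 0.713% of the 10384 transcripts of at least 1 CPM in young liver in both assays. In RNA-seq alone 7.39% of 11198 met it, and in ribosome profiling alone 1.59% of 10746, each of at least 1 CPM in that assay. The same rule turned round, with every old library higher, was met by 1.92% of the 10747 of at least 1 CPM in old liver in both assays. Just inside the threshold, the smaller of both ratios was 1.51 for the third nearest transcript, and just outside it was 1.49 for the nearest and 1.48 for the third nearest. Without the ratio, 247 transcripts were separated by age in both assays.

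**Figure D1:**
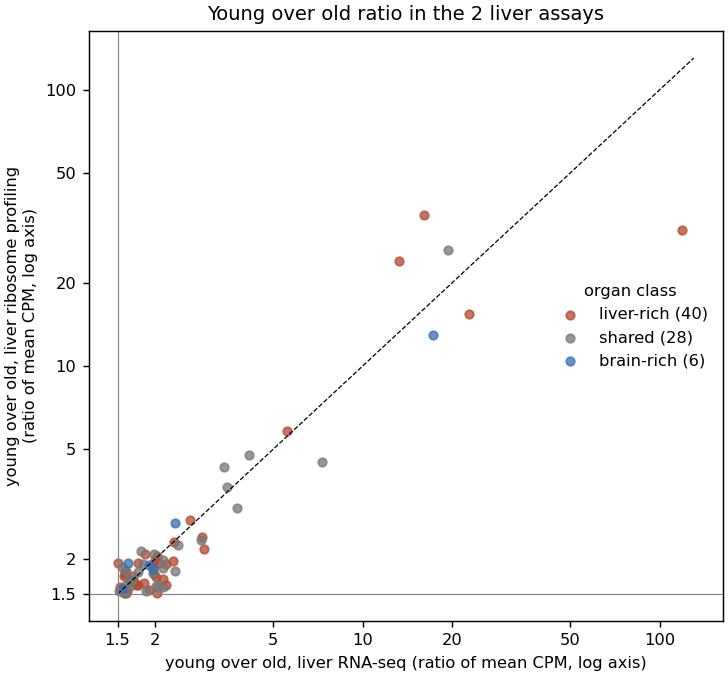
Young over old ratio of mean CPM in liver RNA-seq (horizontal, log axis) and in liver ribosome profiling (vertical, log axis) for the 74 transcripts, coloured by organ class (at least 4-fold higher in young liver, at least 4-fold higher in young brain, or between). Grey lines mark 1.5, the dashed line marks equal ratios, and a transcript with no old count was set at the floor of 3 counts. Most points lie near 2 in both assays, and 6 lie at 10 or above in both.

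Summed over the 74, their share of all counts was 3.30%, 3.96% and 3.99% in the RNA-seq libraries of young livers 1, 2 and 3 and 2.36%, 2.16% and 1.73% in those of old livers 1, 2 and 3. In ribosome profiling it was 4.87%, 5.32% and 5.40% in young and 3.29%, 3.01% and 2.32% in old livers. Young animal 1 was the lowest of the young and old animal 3 the lowest of the old in both assays. In brain the same transcripts held 1.09% to 1.15% of young and 1.06% to 1.23% of old RNA-seq counts. In brain ribosome profiling they held 1.85% to 1.95% and 2.02% to 2.09%. The ages overlapped in the first assay, and every old library lay above every young one in the second. Without the single most abundant member the young brain libraries of ribosome profiling held 0.228% to 0.237% and the old ones 0.214% to 0.333%, so the ages overlapped there too.

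The transcript with the highest CPM in young liver RNA-seq read 8831, 10688 and 9799 CPM in the young livers and 7330.3, 5061 and 5462 CPM in the old ones (CPM is not divided by length). Its ribosome profiling values were 16464, 14487 and 14789 CPM in the young livers and 11661, 7117 and 8403 CPM in the old ones, a young over old ratio of 1.64 in RNA-seq and 1.68 in ribosome profiling. It was abundant in brain too, where RNA-seq gave 9036 ± 351 CPM at the young age and 9096 ± 573 CPM at the old age (SD, n = 3). The next by CPM was a liver transcript, whose liver RNA-seq gave 8582 ± 905 CPM at the young age and 5604 ± 715 CPM at the old age (SD, n = 3). Its brain RNA-seq gave 2.68, 1.94 and 2.06 CPM in the young animals and 2.56, 250.4 and 3.85 CPM in the old ones, so old animal 2 was far above the other 5. At the other end, 19 of the 74 had a young liver mean below 10 CPM in RNA-seq and 26 had one in ribosome profiling.

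The largest ratios were carried by young animals 2 and 3. ENSRNOT00000018435, the first by the geometric mean of both ratios, had 1, 114 and 128 counts in young and 1, 1 and 1 counts in old liver RNA-seq. It had 1, 49 and 69 counts in young and 0, 0 and 0 counts in old liver ribosome profiling. Young animal 1 thus held the same single RNA-seq count as each old animal, and it lay above them only because its library was smaller. The pooled RNA-seq ratio was 113 (95% exact interval 38.1 to 550, for counting error only and not for the spread between animals). By RNA-seq young animal 1 alone was 1.26 times the old mean, which lies outside that interval. Ribosome profiling was at least 31.1-fold higher in young liver by the mean, the old group being taken at a floor of 3 counts in all. Young animal 1 alone read 0.0845 CPM there, close to that floor of 0.0775 CPM, so young animals 2 and 3 carried the mean. In brain this transcript had 0 counts in every library of both assays.

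ENSRNOT00000015724, the second, read 66.5, 551 and 554 CPM in the young livers and 21.2, 28.4 and 23.1 CPM in the old ones by RNA-seq. By ribosome profiling the young livers read 19.1, 722 and 731 CPM and the old ones 11.8, 17.7 and 12.5 CPM. Its young over old ratio was 16.1 in RNA-seq and 35.0 in ribosome profiling, but young animal 1 alone was 2.74 and 1.36 times the old mean, and the other 2 young animals together were 22.8 and 51.9 times it. It too had 0 counts in young brain.

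In the transcripts ranked 3 and 4, young animal 1 again lay beside the old animals. By RNA-seq the third read 0.757, 11.4 and 12.2 CPM in the young livers and 0.628, 0.550 and 0.0774 CPM in the old ones. The fourth read 93.7, 2389.7 and 2369 CPM in the young livers and 62.3, 61.0 and 89.9 CPM in the old ones. By ribosome profiling the fourth read 152, 2954 and 2858 CPM in the young livers and 129.7, 113 and 145 CPM in the old ones. Young animal 1 was 1.32 and 1.18 times the old mean for this transcript in RNA-seq and ribosome profiling, so the large fall is the distance of young animals 2 and 3 from the other 4 animals.

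Ranks 5 and 6 were above the old livers in every young animal, with the narrowest gap in the sixth by ribosome profiling. By ribosome profiling the fifth read 5.57, 16.5 and 4.72 CPM in the young livers and 0.374, 0.554 and 0.195 CPM in the old ones. Young animal 1 alone was 7.68 and 14.9 times the old mean of the fifth in RNA-seq and ribosome profiling, and 7.81 and 8.24 times that of the sixth. The sixth read 3.88, 11.4 and 10.5 CPM in the young livers and 0.942, 0.432 and 0.116 CPM in the old ones by RNA-seq. By ribosome profiling the sixth read 3.04, 6.06 and 5.29 CPM in the young livers and 0, 1.11 and 0 CPM in the old ones. It was far more abundant in brain, where RNA-seq gave 258 ± 19.1 CPM at the young age and 235 ± 2.99 CPM at the old age (SD, n = 3) and the ages overlapped.

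**Figure D2:**
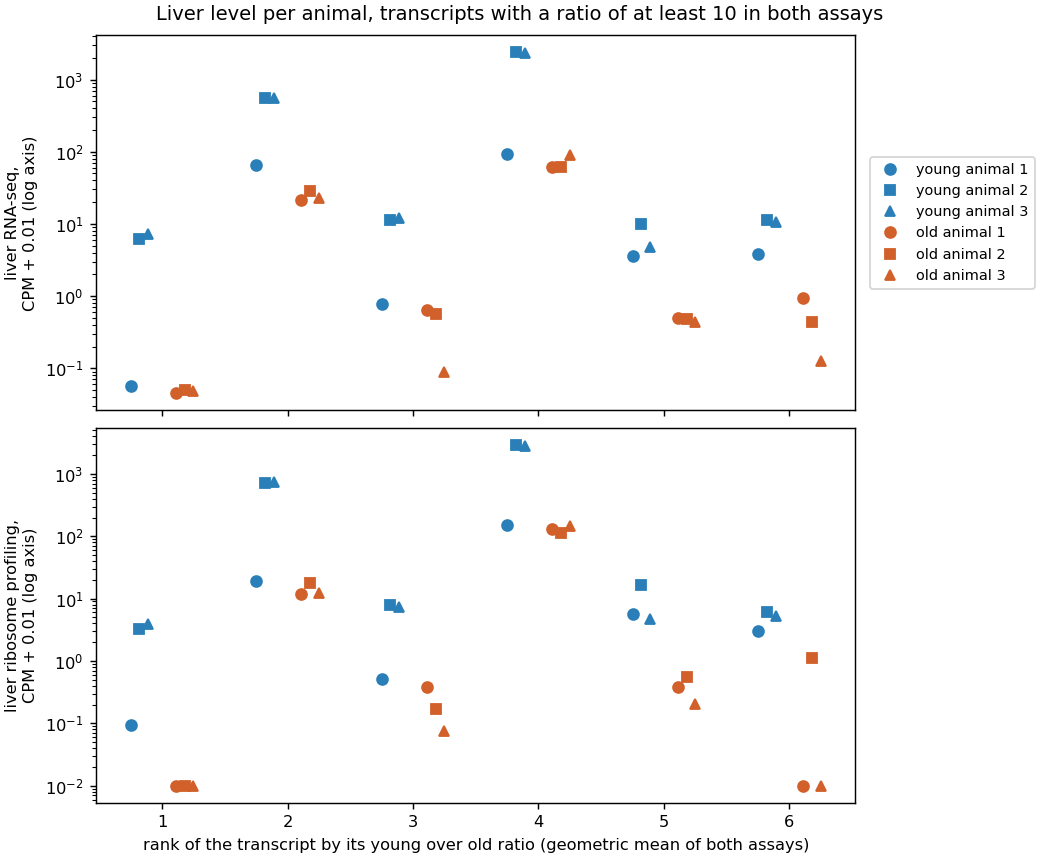
Level per animal (CPM plus 0.01, log axis) in liver RNA-seq (top) and liver ribosome profiling (bottom) for the 6 transcripts with a ratio of at least 10 in both assays, by rank. In ranks 1 to 4 young animal 1 (blue circle) lies beside the old animals (orange) and far from young animals 2 and 3. In ranks 5 and 6 young animal 1 lies farther above the old animals, with the narrower gap in rank 6 by ribosome profiling. By the rule, all young animals lie above all old ones in every rank.

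Across the group, young animal 1 was nearer to the highest old library than to the next young library in both assays for 15 of the 74 (on log2 of CPM plus 0.5), and young animals 2 and 3 were so for 2 each. Young animal 1 was the lowest young library for 71.6% of the 74 in RNA-seq and 51.4% in ribosome profiling, against 62.3% and 40.5% of all transcripts of at least 1 CPM. Young animal 1 taken alone was at least 1.5 times the old mean for 44 of the 74 in RNA-seq and for 53 of the 73 with an old count in ribosome profiling. Old animal 3 was the lowest old library for 52.7% in RNA-seq and 63.5% in ribosome profiling, against 13.7% and 22.5% of all. Among the 247 transcripts separated at any ratio it was so for 42.1% and 55.5%. In 8 of the 74 it lay at least 2-fold under the next old library in both assays, 10.8% against 0.770% of all, while old animal 2 did so in 1 and old animal 1 in 0. The rule favours a low old library, so these shares are a description. Left out one at a time, young animals 1, 2 and 3 gave 207, 74 and 81 transcripts meeting the rule, and old animals 1, 2 and 3 gave 106, 134 and 118. Of the 74, these kept 61, 61 and 64, and 65, 68 and 54.

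**Figure D3:**
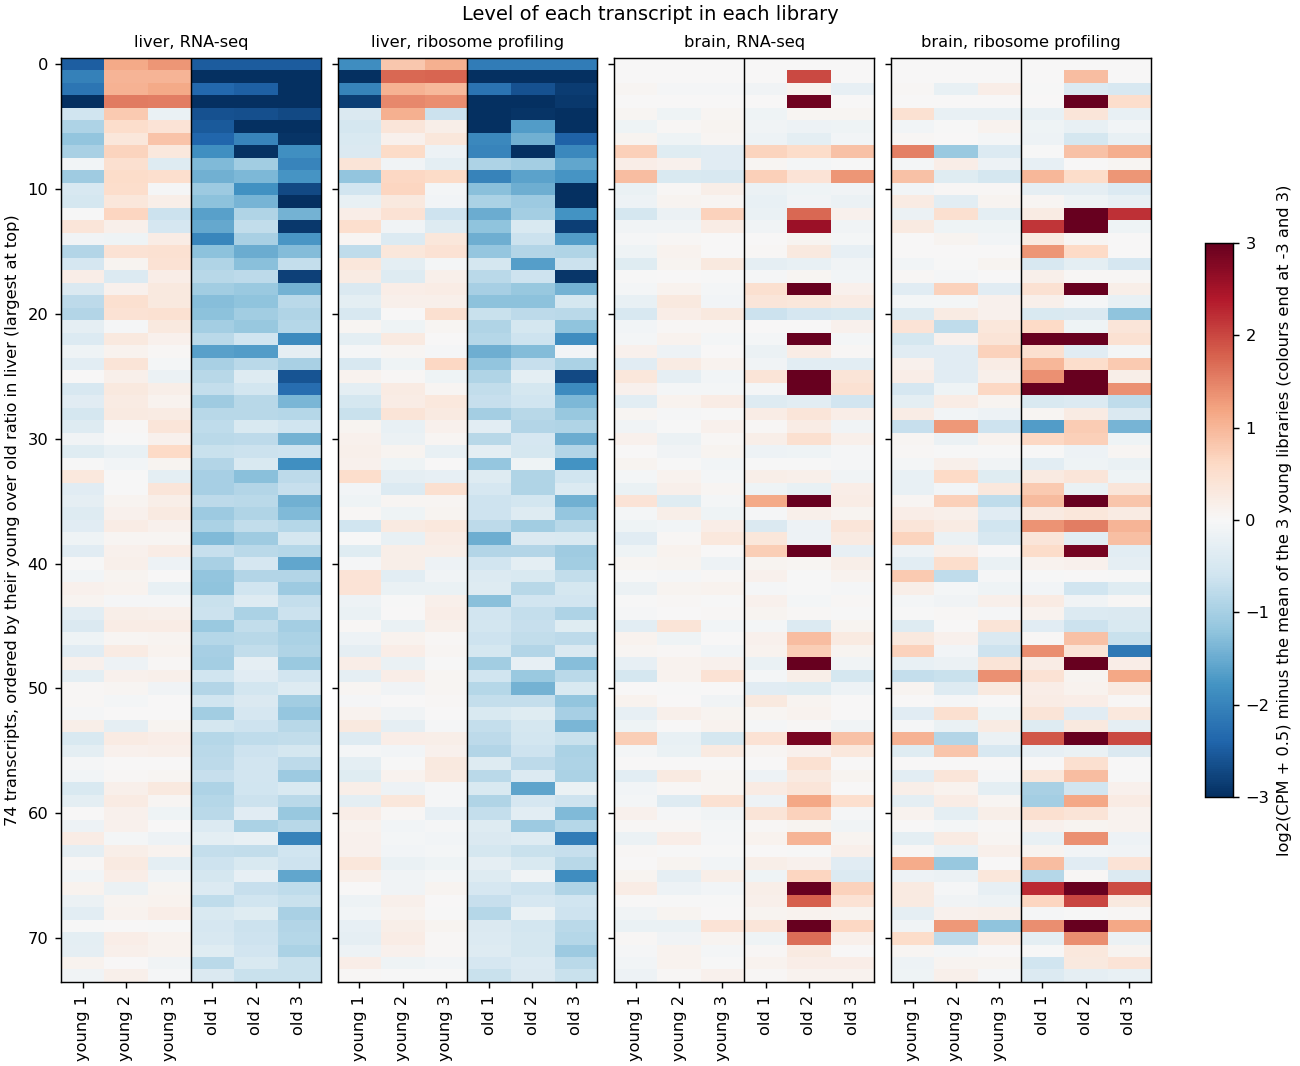
Level of each of the 74 transcripts (rows, largest liver ratio at the top) in each of the 24 libraries (columns), as log2(CPM + 0.5) minus the mean of the 3 young libraries of the same organ and assay. The old liver columns are blue throughout because of the rule, young animal 1 is blue in the top 4 rows, and the dark red rows in brain are mostly in old animal 2.

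Over all transcripts, edgeR (quasi-likelihood test, adjusted p under 0.05) called 0 lower in old liver RNA-seq and 0 in old liver ribosome profiling, which is 0.0% of 12196 and 0.0% of 11395. At an unadjusted p under 0.05 it gave 1461 (12%) and 668 (5.86%) lower, and DESeq2 called 627 (5.14%) and 85 (0.746%) lower at its adjusted threshold. Of the group, 57 and 62 were lower at the unadjusted threshold and DESeq2 called 46 and 32 lower, from which nothing is read because the rule used these libraries. With TMM-scaled library sizes, which allow for composition, 70 transcripts met the rule, of which 51 were among the 74.

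Liver transcripts made up the largest class. In young RNA-seq, 40 of the 74 (54.1%) were at least 4-fold higher in liver than in brain, 28 were within 4-fold and 6 (8.11%) were at least 4-fold higher in brain. Of all transcripts of at least 1 CPM in young liver, 10.6% were at least 4-fold higher in liver and 17.2% at least 4-fold higher in brain. In young ribosome profiling 36 of the 74 (48.6%) were at least 4-fold higher in liver, against 9.97% of all. Another 11 (14.9%) were at least 4-fold higher in brain, against 24.9% of all. The rule asks for a high young liver, which raises these ratios, and for a low old liver, which lowers them at the old age. In old rats 28 of the 74 (37.8%) were at least 4-fold higher in liver than in brain in RNA-seq and 29 in ribosome profiling, against 9.48% and 9.45% of all.

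The median ratio of liver over brain was 4.93 in young and 1.80 in old RNA-seq, and 3.89 and 1.69 in ribosome profiling. Over all transcripts of at least 1 CPM it was 0.555 and 0.508 in RNA-seq, and 0.470 and 0.504 in ribosome profiling. In young brain RNA-seq 19 of the 74 were below 1 CPM, 25.7% against 5.45% of all, and 4 had no count. The 40 liver-rich transcripts had an RNA-seq median of 182 CPM in young liver, and 1.37 CPM in young brain. The 28 shared ones had medians of 15.4 and 29.4 CPM. Their falls in liver were of like size, with median young over old ratios of 1.77 for liver-rich, 1.84 for shared and 1.92 for brain-rich transcripts in ribosome profiling.

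**Figure D4:**
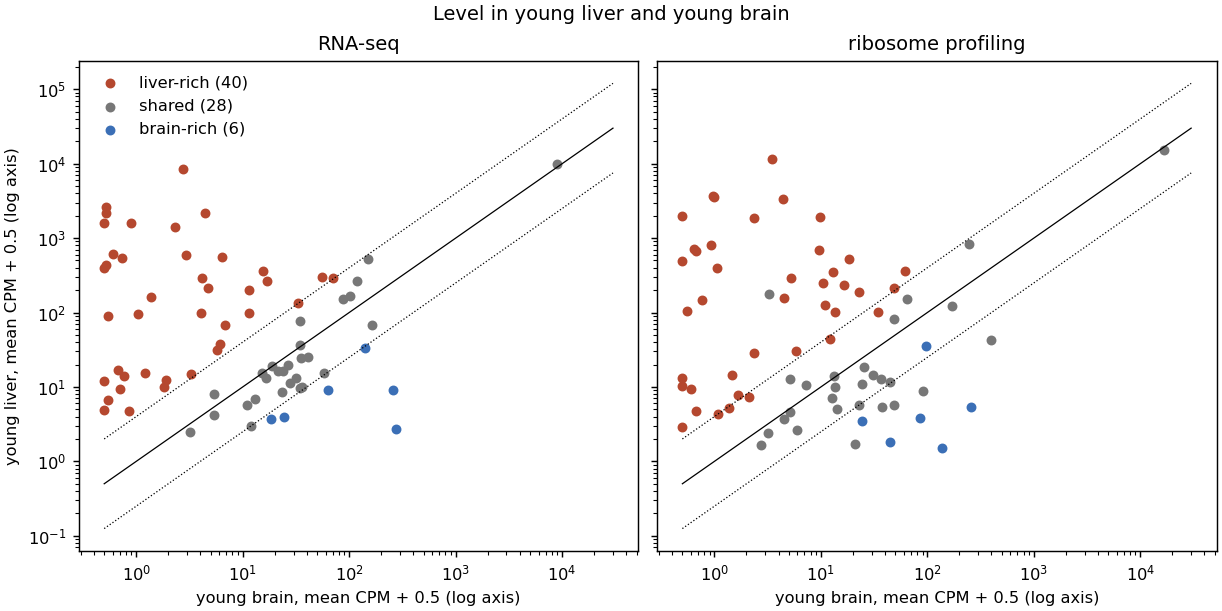
Mean level in young brain (horizontal) against young liver (vertical), both as CPM plus 0.5 on log axes, for the 74 transcripts in RNA-seq (left) and ribosome profiling (right). The solid line marks equal levels and dotted lines 4-fold; colours give the class set in RNA-seq. On the left the 40 liver-rich transcripts spread above the upper dotted line at brain levels down to 0, while on the right some of them lie below it. The shared transcript at the far upper right on the left has 9036 CPM in young brain RNA-seq.

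The 6 brain-rich transcripts were scarce in liver, with a median of 6.03 CPM in young liver RNA-seq against 102 CPM in young brain. By library, their median was 97.9 to 104 CPM in young and 102 to 103 CPM in old brain RNA-seq, and 80.9 to 99.5 CPM and 79.9 to 85.9 CPM in ribosome profiling, with overlap between the ages in both.

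In brain, whose libraries the rule did not use, few of the group, like few of all transcripts, passed a test at its adjusted threshold. In brain RNA-seq, 59 of the 74 passed the filter on low counts, and edgeR called 0 of them, where it called 0.315% of all 13983 tested transcripts higher and 0.157% lower (quasi-likelihood test, adjusted p under 0.05). At an unadjusted p under 0.05, 2 of the 59 were higher and 6 lower, against 7.29% and 6.67% of all, and DESeq2 called 2, both lower, against 0.794% of all called lower. In brain ribosome profiling, 58 passed and edgeR called 1, against 0.789% of all called higher and 0.914% lower. At an unadjusted p under 0.05, 5 were higher and 5 lower, against 7.43% and 6.65% of all. DESeq2 called 2 higher and 2 lower, against 1.39% and 1.42% of all. The 15 that did not pass in RNA-seq were all liver-rich, as were 15 of the 16 in ribosome profiling.

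The called transcript was ENSRNOT00000048543, which brain ribosome profiling gave at 376, 411 and 411 CPM in the young animals and 329, 329 and 299 CPM in the old ones. Every old library lay below every young one (log2 fold change -0.31, SE 0.0686, edgeR adjusted p = 0.0188). Brain RNA-seq gave 139.9, 165 and 182 CPM in the young animals and 142, 147 and 150.3 CPM in the old ones, with overlap (log2 fold change -0.16, edgeR adjusted p = 0.452). Its liver RNA-seq values were 46.1, 93.5 and 63.1 CPM in the young animals and 30.4, 17.9 and 9.53 CPM in the old ones, lower by the rule. Leaving out young animal 2 (edgeR adjusted p = 0.149), young animal 3 (0.142), old animal 1 (0.0702) or old animal 3 (0.0929) ended the call, as did limma-voom (adjusted p = 0.0758) and a spread estimated over 12 libraries (edgeR adjusted p = 0.947). The log2 fold change stayed at -0.26 to -0.36 with 1 animal left out and was -0.298 with limma-voom. Over the alternatives its adjusted p by edgeR, DESeq2 or limma-voom ran from 0.00387 to 0.947. The group's calls in brain ribosome profiling were 0 without young animal 2 or young animal 3, where 33 and 47 of all transcripts were called. They were 3, 1 higher and 2 lower, without young animal 1 and again without old animal 2, where 320 and 254 were called. Without old animal 1 or old animal 3 the group's call was 1, higher, where 57 and 135 were called. With limma-voom it was also 1, higher, where 98 were called. In brain RNA-seq 7 of 60 tested, 1 higher and 6 lower, were called without young animal 1, in a fit that called 1127 of all 14138.

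Most of the group overlapped between the ages in brain. In RNA-seq every old library lay above every young one for 5 of the 59 (8.47%, against 10.9% of all tested) and below for 1 (1.69%, against 7.47%). In ribosome profiling 9 of the 58 (15.5%, against 9.17%) were above and 7 (12.1%, against 10.5%) below. Of the 56 tested in both brain assays, 1 was above in both, where 2.45% of all were, and 0 were below in both, where 2.22% were.

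The median log2 fold change of the group's tested transcripts in old brain was 0.06 in RNA-seq and 0.12 in ribosome profiling, where it was -0.00 and 0.01 over all transcripts tested. The liver-rich ones had the highest medians of the 3 classes, 0.39 and 0.35 over 25 tested in each assay. The shared transcripts had 0.00 and -0.02, and the brain-rich ones -0.08 and -0.08. A scarce transcript can pass the filter on low counts through the old libraries alone, which favours a rise. Such a liver-rich transcript read 0.155, 0.354 and 0.938 CPM in young and 7.23, 147 and 1.90 CPM in old brain ribosome profiling. The liver-rich medians are thus a description only. Old animal 2 stood apart. The median level of the 40 liver-rich transcripts was 1.34, 1.46 and 1.498 CPM in the young animals and 1.71, 8.22 and 1.54 CPM in the old ones by brain RNA-seq. By brain ribosome profiling it was 2.28, 1.59 and 1.56 CPM in the young animals and 3.14, 13.6 and 3.01 CPM in the old ones. Without old animal 2 the median log2 fold change was 0.01 in both assays over the tested transcripts of the group, and 0.17 and 0.15 over the liver-rich ones.

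Summed over the 40, the brain level of old animal 2 was 5.99% of the level in the liver library of the same number in RNA-seq and 6.96% in ribosome profiling. In the young animals it was 0.919% to 1.13% and 0.799% to 1.02%. Old animal 1 had 1.77% and 1.83%, and old animal 3 had 2.502% and 2.19%. The rule holds old liver low, which raises these old percentages, so old and young are not compared on them. The 1057 other liver-rich transcripts had 6.29% and 8.09% in old animal 2, 2.46% to 2.62% and 2.82% to 2.86% in the young animals, 2.57% and 3.31% in old animal 1, and 2.83% and 3.32% in old animal 3. Old animal 2 was thus the highest for the other liver-rich transcripts as well, and its part in the medians above was tested only by leaving it out.

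**Figure D5:**
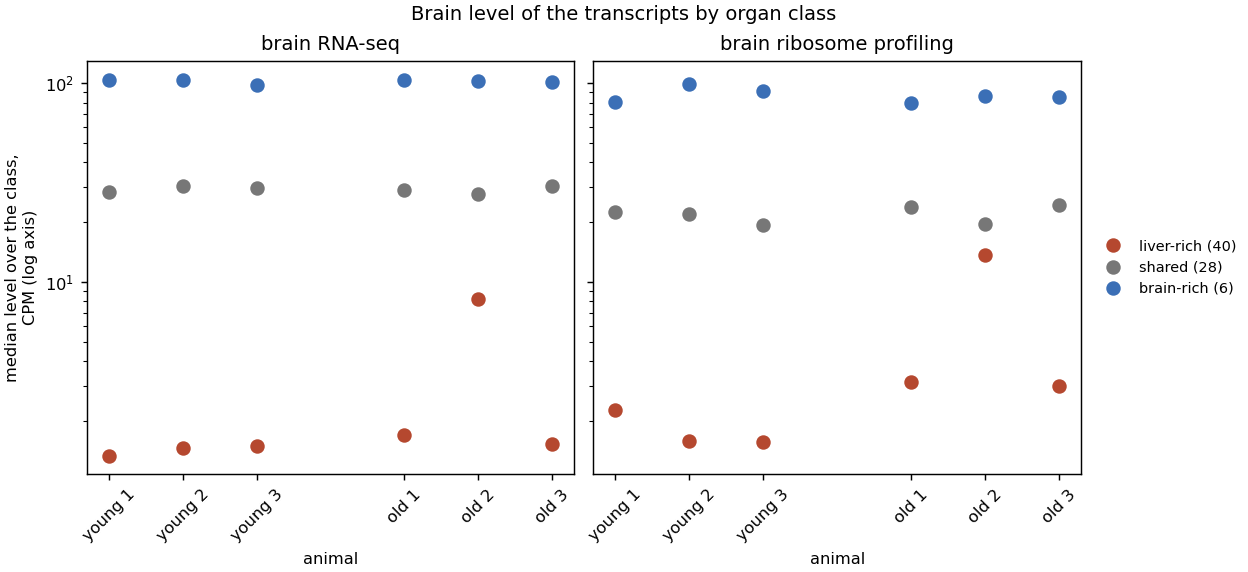
Median level (CPM, log axis) of the 40 liver-rich, 28 shared and 6 brain-rich transcripts in each brain library, in RNA-seq (left) and ribosome profiling (right). The shared and brain-rich medians vary little over the 6 animals, while the liver-rich ones stand at 8.22 and 13.6 CPM in old animal 2. In RNA-seq they stand at 1.34 to 1.498 CPM in the young animals and 1.71 and 1.54 CPM in old animals 1 and 3. In ribosome profiling they stand at 1.56 to 2.28 CPM and at 3.14 and 3.01 CPM. Every old liver-rich median thus lies above every young one in both assays, which was not tested.

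Size was read from the length-like value that the tables give for each transcript, whose unit no header defines. It is below 0 for 23 of all transcripts (lowest -17) and for 0 of the 74, so it is not a plain length and is used here only to order transcripts. Its median was 539.5 for the 74 (quartiles 406 and 671, range 82 to 4461) and 428.5 for all transcripts of at least 1 CPM in young liver (quartiles 250 and 703). Of all such transcripts, 0.384% of those at 250 or less belonged to the group, 0.657% of those at 251 to 428, 1.12% of those at 429 to 703 and 0.694% of those at 704 or more. The share was highest above the median and not among the longest. The liver-rich ones had a median of 479, the shared 647.5 and the brain-rich 525.5. The trend of log2 CPM with this value also differed between the ages in liver RNA-seq, with Spearman's rho of 0.315 to 0.321 at the young age and 0.244 to 0.288 at the old age (across transcripts, which are not independent replicates). In ribosome profiling it was 0.0624 to 0.0858 and 0.0812 to 0.0931. With the trend removed from each library 84 transcripts met the rule, of which 52 were among the 74.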

How the data were processed

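The 24 deposited files hold raw whole-number counts per transcript, 1 library each, and a second value that resembles a length. RNA-seq used a stranded kit, and ribosome profiling used RNase I footprints of pelleted ribosomes, per the labels' protocols. The tools DESeq, TopHat2 2.0.10 and Bowtie 1.0.0.0 and the build rn4 appear in the submitters' processing notes, with no roles. No source used here gives the annotation or counting rule, so transcripts that share reads are uncertain, although 0 of the 74 had the same counts as another transcript. CPM was each count over its library's total. The members and lists were chosen with earlier results of these data known; the gene and marker lists could not be used without names. Named transcripts are the 2 with the largest liver ratio, the brain calls and 1 chosen after its values were seen. Another 3 transcripts are not reported here.

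Ages were compared in brain by edgeR's quasi-likelihood test (version 4.0.16, R 4.3.3, robust, TMM, two-sided, Benjamini-Hochberg over all transcripts passing edgeR's expression filter, minimum count 10, minimum total 15), and the procedure was checked on simulated brain RNA-seq counts. DESeq2 1.42.0, limma-voom (limma 3.58.1), other scalings, filters and libraries were alternatives. Ratios used means of 3 libraries; organ ratios used CPM plus 0.5. The labels do not state how animals were kept, so p-values measure the spread between these animals. Depth was 5259326 to 28664906 counts. The labels mention no molecular identifiers, so intervals and floors cover counting error only.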

Additional observations from a re-analysis of the deposited data

Results flagged for a closer look

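ENSRNOT00000006533 was the 1 transcript of the group that was lower in every old liver library by the rule and higher in every old brain library of both assays. That is 1 of the 56 tested in both, where 2.45% of all transcripts were higher in this way, so the count does not stand above the background. Brain RNA-seq gave 5.95, 5.83 and 5.79 CPM in the young animals and 6.61, 21.5 and 8.05 CPM in the old ones. Brain ribosome profiling gave 10.9, 8.32 and 8.02 CPM in the young animals and 14.5, 37.8 and 11.2 CPM in the old ones. Its log2 fold change in brain was 1.04 in RNA-seq (edgeR adjusted p = 0.488) and 1.26 in ribosome profiling (adjusted p = 0.39), and 0.30 and 0.46 without old animal 2. Liver RNA-seq gave 564 ± 60.9 CPM at the young age and 353 ± 18.9 CPM at the old age (SD, n = 3). The difference between the organs was not tested, since the liver side was fixed by the choice.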

How the results depend on the processing

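The number of transcripts meeting the rule was 20 at a ratio of at least 2 and 74 to 207 with 1 animal left out; 10 of 14 alternatives stayed within 1.5 times of 74. Asking for at least 10 counts in every young library, chosen after seeing the data, left 72. In brain RNA-seq, edgeR's 66 calls over all transcripts became 299 with DESeq2, 7 with limma-voom, 117 with liver-enriched transcripts left out, 0 with the spread over 12 libraries (936 at an unadjusted p under 0.05) and 1 to 1127 with 1 library left out. The 231 calls in brain ribosome profiling became 382, 98, 281, 9 and 33 to 320. Same-numbered young and old brain libraries are different animals and correlated at -0.0096 to 0.11 in RNA-seq and -0.054 to 0.0064 in ribosome profiling. A replicate block gave 287 and 385 calls over all transcripts, against 66 and 231 without it, with 0 and 2 in the group. Whether libraries of the same number were handled together was not tested. Calls within the group were 2 with DESeq2 and 0 to 7 with 1 library left out in RNA-seq. In ribosome profiling they were 4 with DESeq2, 2 with upper-quartile factors, with no filter or with liver-enriched transcripts left out, and 0 to 3 with 1 library left out. They were 0 with the spread over 12 libraries, a fit that also held the liver libraries the rule used. There 73 of the group passed the filter, against 58 in the main fit. At an unadjusted p under 0.05, 17 of the 73 were higher and 1 lower, against 1032 and 249 of all 14437. Nothing is read from these, because liver levels helped the 73 to pass. The median log2 fold change of the group's tested transcripts was 0.00937 to 0.0739 in brain RNA-seq with 1 library left out. It was 0.0243 over the 42 tested with liver-enriched transcripts left out, and 0.108 over 73 with the spread over 12 libraries. In ribosome profiling it was 0.00861 to 0.170 with 1 library left out and 0.161 over 73 with no filter. It was 0.184 over 73 with the spread over 12 libraries and -0.0176 over the 40 tested with liver-enriched transcripts left out. These medians cover different sets of transcripts, so they do not show processing alone. The median log2 ratio of liver over brain was 2.30 in young RNA-seq, 0.84 in old libraries and 1.78 with a pseudocount of 2; in ribosome profiling it was 1.96, 0.76 and 1.52, with 2.22 for a pseudocount of 0.1 and 1.69 to 2.24 with 1 animal left out. The causes were not tested.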

Other observations

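Footprints per RNA were described for the group in each organ. The median log2 ratio of ribosome profiling over RNA-seq (mean CPM plus 0.5 each) was -0.10 in young and -0.14 in old liver over the 74, against -0.31 and -0.15 over all transcripts of at least 1 CPM in young liver. In brain it was 0.08 and 0.15, against -0.09 and -0.10. These are levels with no test, and the liver values come from the libraries the rule used.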
